A study of Mus musculus with 6 samples.

Results

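The 10 genes described here build the pathway that shows peptides from inside a cell on MHC class I molecules at its surface. They are the heavy chain genes H2-K1 and H2-D1, the light chain gene B2m, the peptide transporter genes Tap1 and Tap2, the tapasin gene Tapbp, the immunoproteasome genes Psmb8, Psmb9 and Psmb10, and the transactivator gene Nlrc5. They were chosen by symbol, with earlier results of these data known, and a repeated symbol was read from its row with the highest mean. All 10 stand among the 43548 genes of the deposited table. The cells were Met-1 TripZ-200c, a single clone of Met-1, a mammary carcinoma line of strain FVB/nJ that came from a late-stage tumor of the MMTV-PyMT mouse. The clone carries a lentiviral vector from which doxycycline (Dox) induces the microRNA miR-200c together with a red fluorescent protein, and it was picked for low leakage and intermediate fluorescence. RNA was taken after 48 h with vehicle (minus Dox, 3 libraries) or with Dox at 1 µg/mL (plus Dox, 3 libraries). For medium, the labels give DMEM for growth and RPMI during treatment, and the methods name DMEM for this line. The labels describe the 3 libraries of a group as biological triplicate plated in triplicate, so p-values measure the spread between such cultures of the clone. Cells with an empty vector were not among these libraries, so an effect of Dox itself and an effect of miR-200c cannot be told apart.

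In the class I pathway the proteasome cuts proteins into peptides, and TAP1 and TAP2 together carry those peptides across the membrane of the endoplasmic reticulum. There tapasin holds an empty heavy chain, paired with beta-2-microglobulin, beside the transporter until a fitting peptide is bound, and the loaded complex moves to the surface, where CD8 T cells and natural killer cells read it. Interferons raise most genes of the pathway, and NLRC5 drives the promoters of some of these genes. Many carcinomas lower genes of the pathway and so become harder for T cells to detect.

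Levels are given as FPKM, the number of fragments on a gene scaled to the length of the gene and to the library's mapped reads, so levels of different genes can be set side by side. The number of reads behind an FPKM value is unknown. Relative depth was estimated from the most common ratio between libraries over genes detected at very low FPKM in both. Relative to minus Dox replicate 1, it was 0.92 and 1.3 for the other minus Dox libraries. For plus Dox replicates 1 to 3 it was 0.979, 1.49 and 1.12. Values summed to between 800267 and 815139 FPKM per library, and 16867 to 18012 genes per library were above 0. Groups were compared by limma on log2(FPKM + 0.1) over the 12879 genes whose mean reached 1 FPKM, and a gene was called higher or lower with Dox at an adjusted p under 0.05. Fold changes on this scale understate the change of genes with low FPKM. Of the 10 genes, 9 passed the filter on low values, and Psmb9 was read from the same model fitted without the filter.

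Without Dox the class I genes spanned a wide range of levels. B2m had the highest mean, 762 ± 15.9 FPKM (SD, n = 3), above 99.2% of the genes tested. H2-D1 followed with 340 ± 24.1 FPKM (SD, n = 3), then H2-K1 with 187 ± 7.07 FPKM (SD, n = 3), and Tapbp with 95.3 ± 17.4 FPKM (SD, n = 3). Psmb8, Tap2 and Psmb10 stood in the middle and upper range of all genes tested, with means of 48.9 ± 2.96, 40.5 ± 0.801 and 23.01 ± 2.25 FPKM (SD, n = 3 each). Tap1, Nlrc5 and Psmb9 were near the low end, with 3.53 ± 0.66, 3.16 ± 0.431 and 0.823 ± 0.249 FPKM (SD, n = 3 each). The molecules that end up at the surface were thus the most abundant transcripts, and the transactivator and part of the peptide supply were scarce. With Dox the order of the 10 means was the same, from 806 ± 9.43 FPKM for B2m to 0.682 ± 0.388 FPKM for Psmb9 (SD, n = 3 each). In both groups the libraries of each gene lay apart from those of the next gene in the order, except that Tap1 and Nlrc5 overlapped. B2m, H2-K1 and H2-D1 made up 85.7 ± 1.15% of the summed FPKM of the 10 genes without Dox and 84.2 ± 1.06% with Dox (SD, n = 3 each). That sum was 1495.5, 1504.6 and 1509 FPKM in the minus Dox libraries and 1655.3, 1731 and 1701.3 FPKM in the plus Dox libraries. All 3 plus Dox sums lay above all 3 minus Dox sums. The difference of the means was 192.8 FPKM, with p = 0.1 in an exact two-sided permutation test (n = 3 each), the smallest p that 3 libraries against 3 can give.

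**Figure D1:**
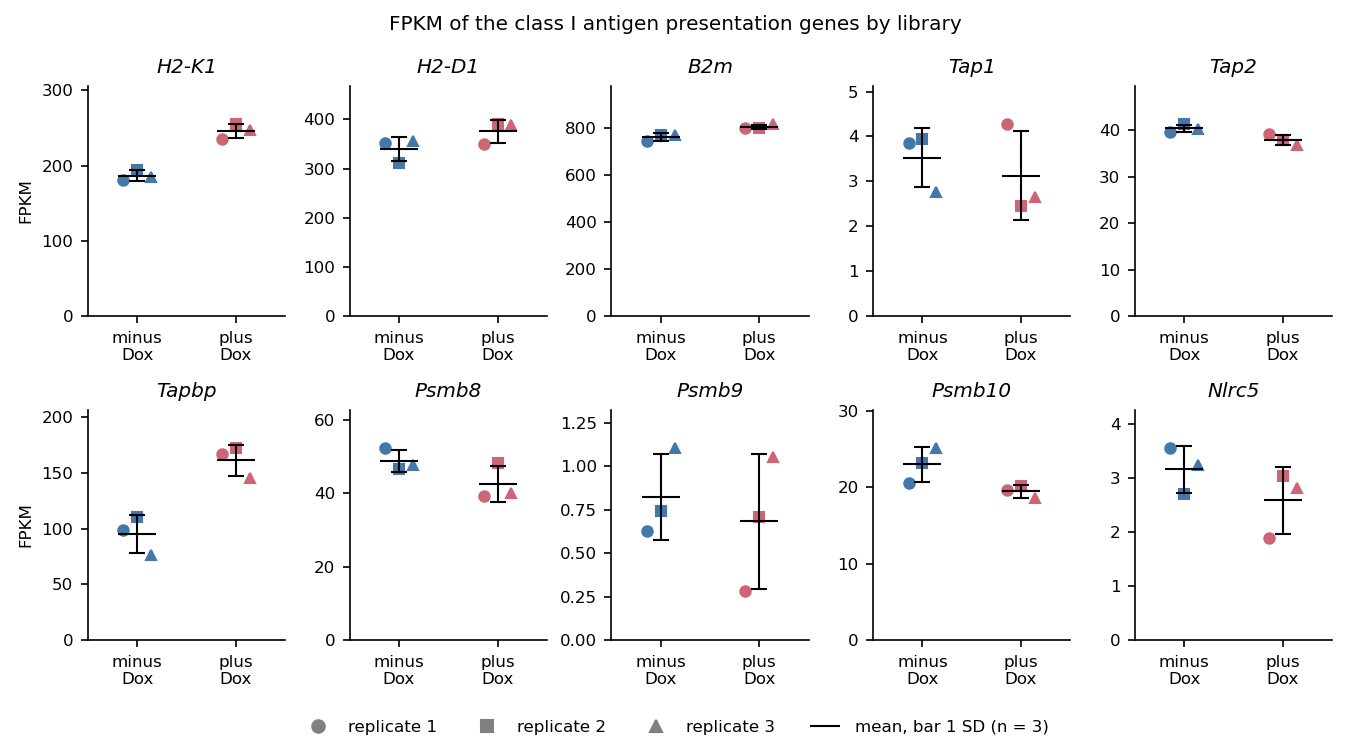
FPKM of each of the 10 class I genes in each of the 6 libraries, 1 panel per gene, with minus Dox on the left and plus Dox on the right of each panel. Symbols are replicates, lines are means and bars are 1 SD (n = 3), and each vertical axis starts at 0; H2-K1, B2m and Tapbp have all 3 plus Dox libraries above all 3 minus Dox libraries, and Tap2 and Psmb10 have them below.

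H2-K1 (ENSMUSG00000061232, GRCm38 chr17:33996017-34000347, minus strand) encodes the heavy chain H-2K, which holds the peptide shown to CD8 T cells. It stood at 181, 194 and 185 FPKM in the minus Dox libraries and at 236, 255 and 248 FPKM in the plus Dox libraries. Every plus Dox library was above every minus Dox library, and the gap between the groups was wider than the range within either. H2-K1 rose by 31.9% with Dox, a log2 fold change of 0.40 (95% interval 0.30 to 0.50, adjusted p = 0.00144 from limma). In RNA of whole cultures, more cells of a type and more RNA per cell cannot be told apart. H2-D1 (ENSMUSG00000073411, chr17:35262730-35267499, plus strand) encodes the other classical heavy chain, H-2D. Its libraries were at 352, 312 and 356 FPKM in the minus Dox group against 349, 390.0 and 389 FPKM in the plus Dox group. Plus Dox replicate 1 lay among the minus Dox values, so the groups overlapped, although the other plus Dox libraries were the highest of the 6. Its log2 fold change was 0.15 (95% interval -0.00 to 0.30, adjusted p = 0.183 from limma) and did not pass, and it was 0.09 without minus Dox replicate 2.

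B2m (ENSMUSG00000060802, chr2:122147686-122153083, plus strand) encodes beta-2-microglobulin, the light chain that every class I heavy chain needs to fold. Its level was 743, 769 and 772 FPKM in the minus Dox libraries and 799, 802 and 816 FPKM in the plus Dox libraries. The groups did not overlap, but they lay close together: the difference was 5.78%, a log2 fold change of 0.08 (95% interval 0.02 to 0.14). With an adjusted p of 0.0785 from limma, B2m did not pass. The ratio of H2-K1 to H2-D1 in FPKM was 0.514, 0.624 and 0.519 without Dox and 0.676, 0.653 and 0.636 with Dox, so H2-K1 made a larger part of the classical heavy chain RNA in every plus Dox library. The mean ratio was 0.552 ± 0.0617 without Dox and 0.655 ± 0.0197 with Dox (SD, n = 3 each), and the exact two-sided permutation test gave p = 0.1. The ratio of B2m to the summed heavy chains was 1.40, 1.52 and 1.43 without Dox and 1.37, 1.24 and 1.28 with Dox. Light chain RNA exceeded the RNA of both heavy chains in all 6 libraries, and the ratio was lower in each plus Dox library than in any minus Dox library. The difference of the mean ratios was -0.152 (exact two-sided permutation p = 0.1, n = 3 each). Under quantile normalization the groups overlapped in this ratio (exact two-sided permutation p = 0.2).

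H2-K1 and H2-D1 differ between mouse strains, and the FVB strain carries haplotype q where the reference genome carries haplotype b; the effect of this on their FPKM was not tested. Of all stretches of 50 bases, the read length, in the longest coding transcript of H2-K1, 8.79% also occur in another gene, most often in H2-D1 (6.94%). For H2-D1 this share is 14.3%, with H2-Q1 the gene most often shared (7.40%). No such stretch of B2m occurs elsewhere.

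Promoter windows of RefSeq (GRCm38.p6), from 250 bases before to 50 bases after the start, were given for 8 of the 10 genes and not for Tap2 and Nlrc5. Stretches of the H2-K1 and B2m windows are shown because H2-K1 was the classical heavy chain gene that rose and B2m encodes its partner, and those of H2-Q4 and H2-Q7 because these other heavy chain genes also rose, as described further on. Capitals mark matches on either strand to a kappa-B consensus, to the interferon element in its full form (GAAA, any 2 bases, GAAA) or its shorter form (GAA, any 2 bases, GAAA), to the CRE-like letters TGACGC or TGACGT, and to the CCAAT box (CCAAT), all of which belong to the textbook layout of a class I promoter. Each is written 5′ to 3′ along the strand of its gene, at chr17:34000351-34000466 (minus strand) for H2-K1, chr17:35379435-35379574 (plus strand) for H2-Q4, chr17:35439014-35439151 (plus strand) for H2-Q7 and chr2:122147540-122147646 (plus strand) for B2m.
H2-K1: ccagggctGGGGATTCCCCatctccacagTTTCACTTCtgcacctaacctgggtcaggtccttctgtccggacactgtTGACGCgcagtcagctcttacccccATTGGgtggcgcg
H2-Q4: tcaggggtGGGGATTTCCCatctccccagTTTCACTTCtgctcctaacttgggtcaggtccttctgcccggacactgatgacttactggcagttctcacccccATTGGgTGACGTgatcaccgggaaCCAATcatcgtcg
H2-Q7: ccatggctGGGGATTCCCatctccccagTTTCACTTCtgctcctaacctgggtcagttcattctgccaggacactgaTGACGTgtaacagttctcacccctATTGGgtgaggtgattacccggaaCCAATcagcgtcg
B2m: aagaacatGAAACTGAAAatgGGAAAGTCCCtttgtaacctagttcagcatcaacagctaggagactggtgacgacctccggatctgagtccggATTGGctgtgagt
In each heavy chain stretch the kappa-B match comes first and the shorter interferon element, read on the other strand, comes next. A CRE-like match and CCAAT on the other strand follow, in this order in H2-K1 and H2-Q7 and in the reverse order in H2-Q4. The window of H2-D1, which was not called, holds these matches in the same order as H2-K1. Its stretch is not shown because an annotated exon overlaps it, so the order is not particular to the heavy chain genes that rose. In B2m the full interferon element precedes the kappa-B match. The shorter element was added to the search after the windows had been seen.

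Among all 32851 RefSeq windows of 300 bases, 8.46% hold a kappa-B match, and so do windows of 3 of the 8 class I genes (H2-K1, H2-D1 and B2m). H2-K1 has more than 1 window, and a gene is counted once. The full interferon element is in 3.44% of all windows and in that of B2m, and the shorter one in 7.52% and in those of H2-K1 and H2-D1. CRE-like letters are in 14% of all windows and in those of H2-K1 and H2-D1. CCAAT is in 37.4% of all windows and in windows of 6 of the 8 genes. The gamma-activated site, TTCNNNGAA, is in 8.30% of all windows and among the 8 genes in that of Psmb8 only. CACCTG, the E-box that ZEB1 is known to bind, is in 20.2% of all windows and in those of Tap1 and Psmb9, which run in opposite directions from a shared stretch and have 275 of 300 bases in common. These are matches of letters and no measure of binding.

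Tap1 (ENSMUSG00000037321, chr17:34187553-34197225, plus strand) and Tap2 (ENSMUSG00000024339, chr17:34203527-34216321, plus strand) encode the transporter, which needs both proteins. Tap1 was at 3.86, 3.95 and 2.77 FPKM in the minus Dox group against 4.27, 2.45 and 2.65 FPKM in the plus Dox group. Plus Dox replicate 1 lay above the minus Dox range and the other plus Dox libraries below it, so the groups were not separated. Its log2 fold change was -0.19 (95% interval -0.79 to 0.40, adjusted p = 0.668 from limma). It moved by over 1.5 times whichever library was left out, between -0.43 without plus Dox replicate 1 and -0.05 without plus Dox replicate 2. Tap2 was at 39.7, 41.3 and 40.4 FPKM in the minus Dox group against 39.1, 37.8 and 36.8 FPKM in the plus Dox group. All plus Dox libraries were below all minus Dox libraries, by a narrow margin. At a log2 fold change of -0.09 (95% interval -0.20 to 0.01), Tap2 did not pass (adjusted p = 0.231 from limma). Tap2 RNA exceeded Tap1 RNA by 10.3, 10.5 and 14.6 times without Dox and by 9.17, 15.4 and 13.9 times with Dox. The transporter's subunits were thus far from equal at the RNA level in each library, and the groups overlapped in that ratio.

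Tapbp (ENSMUSG00000024308, chr17:33915899-33929292, plus strand) encodes tapasin, which bridges the transporter and the empty heavy chain and favors peptides that bind tightly. It was at 99.2, 110.4 and 76.4 FPKM in the minus Dox libraries and at 167, 172 and 146 FPKM in the plus Dox libraries. Replicate 3 was the lowest library of each group, and even so all plus Dox libraries were above all minus Dox libraries. Its means were 95.3 and 162 FPKM. Tapbp rose with Dox by 71.1% in the limma fit, a log2 fold change of 0.77 (95% interval 0.46 to 1.09, adjusted p = 0.0104 from limma), larger in size than that of any of the other 9 genes. Fitted by an unmoderated linear model per gene in place of limma, Tapbp did not pass (adjusted p = 0.0768 on log2(FPKM + 1) and 0.0584 on FPKM), and it passed in the other 14 of 16 alternatives. Exons of Tapbp overlap those of Zbtb22 on the same strand (4.11% of the exon bases of Tapbp) and of the antisense gene Gm19412 (24.9%). Of the 50-base stretches in the transcript of Tapbp, 21.0% also occur in other genes, most often in Gm19412 (19.0%). Gm19412 was at 6.36, 4.35 and 5.47 FPKM in the minus Dox group against 6.45, 6.21 and 6.52 FPKM in the plus Dox group, and Zbtb22 was at 30.2, 29.0 and 29.7 against 34.8, 32.9 and 35.5 FPKM. Both neighbours were lower than Tapbp in every library, Gm19412 by far. The libraries were made with a stranded kit, but whether reads were counted by strand is not stated, and the part of shared exons in the change of Tapbp was not tested.

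Tapbpl (ENSMUSG00000038213), from the list of peptide loading genes, encodes the tapasin-related protein TAPBPR, another peptide editor that works away from the transporter. It was at 4.73, 4.38 and 4.46 FPKM in the minus Dox group against 10.7, 9.71 and 9.52 FPKM in the plus Dox group. The groups were widely separated, and the spread within each was small. Its log2 fold change of 1.12 (95% interval 0.90 to 1.34, adjusted p = 0.000566 from limma) was the largest increase among the genes called in the pathway lists. Both tapasin-type genes were therefore higher with Dox, Tapbp at a level well above that of Tapbpl.

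Psmb8 (ENSMUSG00000024338, chr17:34197721-34201454, plus strand), Psmb9 (ENSMUSG00000096727, chr17:34181987-34187764, minus strand) and Psmb10 (ENSMUSG00000031897, chr8:105935735-105938444, minus strand) encode the catalytic subunits that interferon puts into the proteasome in place of those encoded by Psmb5, Psmb6 and Psmb7. Psmb8 was at 52.3, 46.8 and 47.7 FPKM in the minus Dox group against 39.4, 48.2 and 40.2 FPKM in the plus Dox group. Plus Dox replicate 2 lay within the minus Dox range, and the other plus Dox libraries were below it. Its log2 fold change was -0.20 (95% interval -0.41 to 0.00, adjusted p = 0.175 from limma), and it did not pass. Without plus Dox replicate 2 it passed at -0.30 (adjusted p = 0.0446 from limma, the lowest over 16 alternatives, in which it reached 0.381). Psmb10 was at 20.6, 23.3 and 25.1 FPKM in the minus Dox group against 19.6, 20.2 and 18.6 FPKM in the plus Dox group. The plus Dox libraries were all below the minus Dox libraries, the nearest pair lying close together. At a log2 fold change of -0.24 (95% interval -0.43 to -0.04), Psmb10 did not pass (adjusted p = 0.108 from limma). Without minus Dox replicate 1, its lowest minus Dox library, it passed at -0.31 (adjusted p = 0.0465 from limma, the lowest over 16 alternatives, in which it reached 0.265).

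Psmb9 was the scarcest of the 10 genes, at 0.624, 0.743 and 1.10 FPKM in the minus Dox group against 0.281, 0.709 and 1.05 FPKM in the plus Dox group. The groups overlapped, and replicate 3 was the highest library in each. Without the filter its log2 fold change was -0.35 (95% interval -1.53 to 0.84, adjusted p = 0.731 from limma), and it turned to 0.10 (adjusted p = 0.915 from limma) when plus Dox replicate 1 was left out. Psmb9 and Tap1 share 212 exon bases on opposite strands, which is 5.79% of the exon bases of Psmb9. Psmb8 RNA exceeded Psmb9 RNA by between 38.1 and 140.1 times over the 6 libraries.

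Across the 6 catalytic subunits, the immunoproteasome genes held 10.1, 9.83 and 9.52% of the FPKM without Dox and 7.65, 8.80 and 7.88% with Dox. This immunoproteasome share was lower in every plus Dox library than in any minus Dox library, and plus Dox replicate 2 came nearest to the minus Dox range. Its mean was 9.80 ± 0.272% without Dox and 8.11 ± 0.608% with Dox (SD, n = 3 each). The difference was -1.69 percentage points (exact two-sided permutation p = 0.1). Summed, Psmb8, Psmb9 and Psmb10 went from 72.7 ± 1.72 to 62.7 ± 5.50 FPKM and did not overlap between the groups. Psmb5, Psmb6 and Psmb7 summed to 669.7 ± 28.7 and 710.3 ± 9.61 FPKM, and their libraries overlapped (SD, n = 3 each). The constitutive subunits thus outweighed their immunoproteasome counterparts in all 6 libraries. Of the stretches of 50 bases in the longest transcripts, 57.1% in Psmb5 and 28.1% in Psmb7 also occur in other genes, so their FPKM is less certain.

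**Figure D2:**
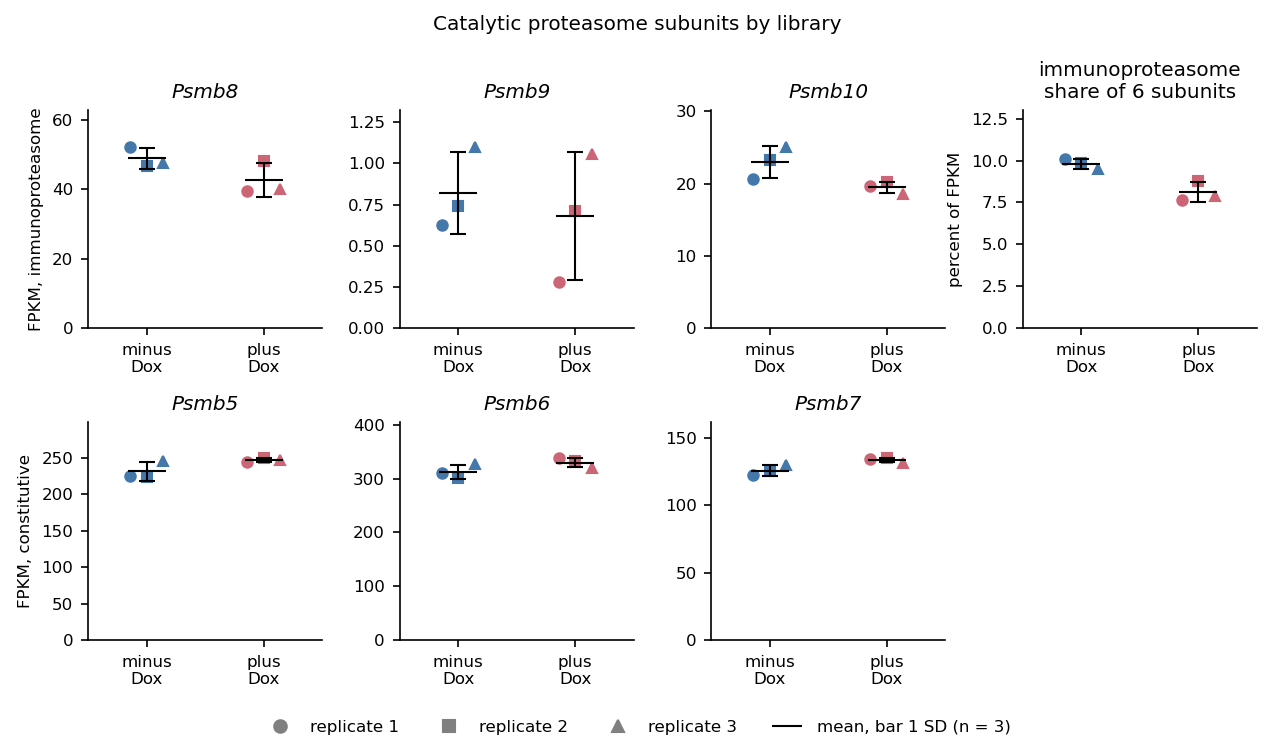
FPKM by library of the 3 immunoproteasome genes (upper panels), of the 3 constitutive genes they replace (lower panels), and the immunoproteasome share in percent of the FPKM of the 6 subunits (upper right), each axis from 0. Symbols are replicates, lines are means and bars are 1 SD (n = 3); the share is lower in all 3 plus Dox libraries, at 7.65 to 8.80%, than in the minus Dox libraries, at 9.52 to 10.1%.

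Nlrc5 (ENSMUSG00000074151, chr8:94434356-94527272, plus strand) encodes the transactivator that assembles on class I promoters. It was at 3.55, 2.69 and 3.23 FPKM in the minus Dox group against 1.88, 3.04 and 2.82 FPKM in the plus Dox group. Plus Dox replicate 1 was the lowest library, and the other plus Dox libraries lay within the minus Dox range. The log2 fold change was -0.30 with an interval that spanned 0 (95% interval -0.83 to 0.23, adjusted p = 0.438 from limma), and it was -0.10 without plus Dox replicate 1. Nlrc5 was not called, and at this low level its interval was wide. A part of Nlrc5 in the rise of H2-K1 and Tapbp was not tested.

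Counted together, 2 of the 9 class I genes tested were called higher with Dox (H2-K1 and Tapbp), where 7.06% of all 12879 genes tested were called higher. Of the 9, 0 were called lower by limma, where 7.97% of all genes tested were. At an unadjusted p under 0.05 limma had 4 of the 9, H2-K1, B2m, Tapbp and Psmb10, beside 29.2% of all genes tested. In 3 of the 10 genes (H2-K1, B2m and Tapbp) all plus Dox libraries were above all minus Dox libraries, a pattern found in 17.4% of the genes tested with 6 values. In another 2 (Tap2 and Psmb10) they were all below, found in 17.6% of those genes, and 5 overlapped. The median log2 fold change of the 9 was -0.09, beside 0.00 over all genes tested. The class I genes therefore did not move as a block: the heavy chain H2-K1 and the loading factor Tapbp rose, H2-D1 and B2m had values of 0.15 and 0.08, and the transporter, immunoproteasome and transactivator genes had values at or below -0.09, with the sign of Psmb9 resting on plus Dox replicate 1. These other 8 did not pass.

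**Figure D3:**
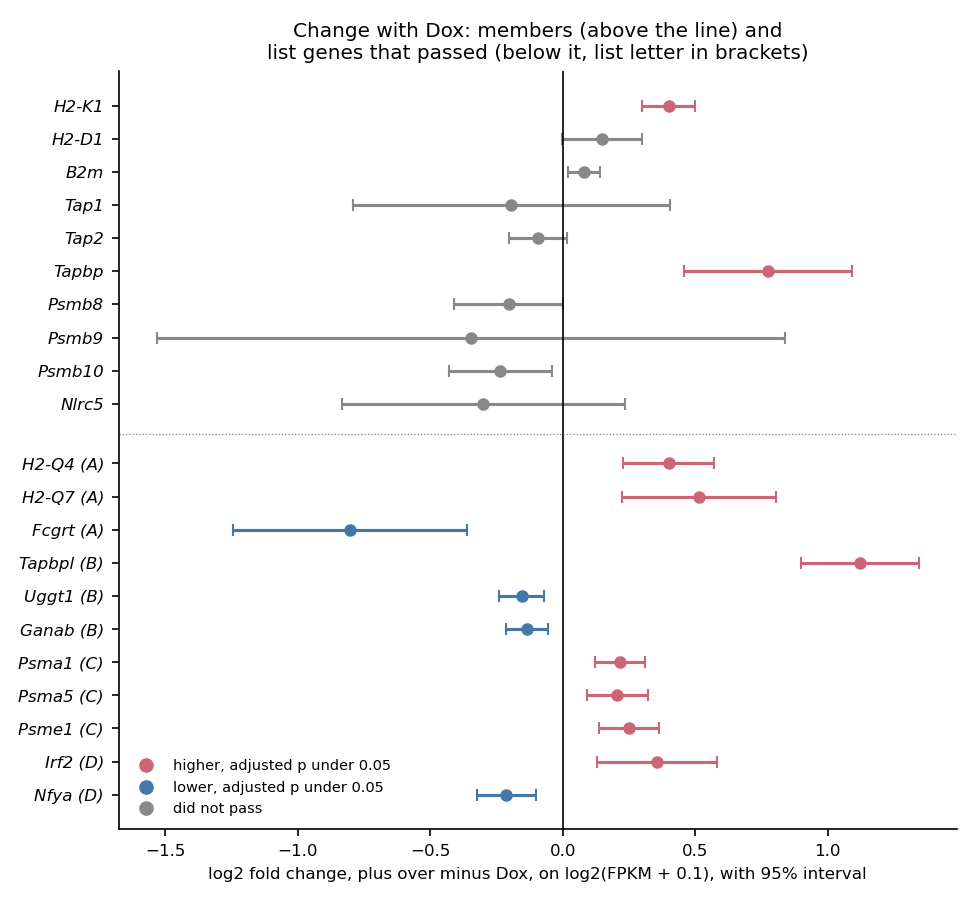
Log2 fold change (plus over minus Dox, on log2(FPKM + 0.1)) with its 95% interval from limma for the 10 class I genes, above the dotted line, and for the genes of the pathway lists that passed, below it. Red marks genes called higher, blue genes called lower and grey genes that did not pass (n = 3 libraries per group); the intervals of H2-K1, B2m and Tapbp lie wholly above 0 and that of Psmb10 wholly below, and that of Psmb9 is the widest.

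Other genes of the pathway were read from 4 lists of 84 symbols, of which 80 are in the table and 73 passed the filter. Among the 73, 7 were called higher, 4 lower and 62 neither, near the 7.06% and 7.97% of all genes tested that were called higher and lower, and their median log2 fold change was 0.04. With a library left out, 3 to 7 of the 73 were called higher and 0 to 3 lower. Over all genes tested, 471 to 671 were then called higher and 577 to 699 lower. Other class I and class I-like heavy chains (24 listed, 20 in the table, 13 tested) had 2 genes higher, 1 lower and a median of -0.12. H2-Q4, a nonclassical heavy chain and the most abundant of this list, was at 50.4, 45.6 and 54.4 FPKM in the minus Dox group against 65.1, 63.4 and 69.6 FPKM in the plus Dox group. Its groups lay apart, and it rose by 0.40 on the log2 scale (adjusted p = 0.0124 from limma), as H2-K1 did. H2-Q7, which encodes a Qa-2 heavy chain, was at 9.72, 9.29 and 7.37 FPKM in the minus Dox group against 13.6, 11.6 and 12.3 FPKM in the plus Dox group. It rose too, by 0.51 on the log2 scale (adjusted p = 0.0334 from limma). Without plus Dox replicate 3, H2-Q4 just missed the threshold (adjusted p = 0.0513 from limma). H2-Q7 passed without minus Dox replicate 1 and missed the threshold when any of the other 5 libraries was left out (adjusted p = 0.0610 to 0.105 from limma). Of the 50-base stretches in their longest transcripts, 39.2% for H2-Q4 and 34.9% for H2-Q7 also occur in other genes, H2-Q6 being the gene H2-Q7 shares most with.

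Fcgrt, the heavy chain of the neonatal Fc receptor, which pairs with beta-2-microglobulin but presents no peptide, was at 5.37, 7.64 and 7.08 FPKM in the minus Dox group against 3.04, 4.13 and 4.20 FPKM in the plus Dox group. It fell in all plus Dox libraries, by limma at -0.80 on the log2 scale (adjusted p = 0.0306). It missed the threshold when any library but minus Dox replicate 1 was left out (adjusted p = 0.0622 to 0.0947 from limma). Heavy chain genes that bind beta-2-microglobulin thus moved in both directions.

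Genes of peptide loading, quality control and trimming (13 tested) had 1 higher, Tapbpl, and 2 lower, with a median of -0.01. The lower genes were Uggt1, the folding sensor that returns poorly loaded heavy chains to their chaperones (log2 fold change -0.15, adjusted p = 0.0311 from limma), and Ganab, a glucosidase subunit that trims their sugar chains (-0.14, adjusted p = 0.0378 from limma). Uggt1 missed the threshold when any library but minus Dox replicate 2 was left out (adjusted p = 0.0695 to 0.0915 from limma), and Ganab whichever was left out (0.0591 to 0.122). Calr, which encodes calreticulin, was the most abundant of them and had nearly equal means of 884.7 and 878.6 FPKM (log2 fold change -0.01, adjusted p = 0.846 from limma). The constitutive proteasome with its activators and assembly factors (23 tested) had 3 genes higher and 0 lower by limma (4 had an unadjusted p under 0.05, beside 29.2% of all genes tested), with a median of 0.07. Its values were above 0 in 18 genes, as were 50.8% of those of all genes tested. The higher genes were Psma1 (0.22, adjusted p = 0.0130 from limma) and Psma5 (0.21, adjusted p = 0.0310 from limma), which encode outer ring subunits, and Psme1 (0.25, adjusted p = 0.0160 from limma), which encodes a subunit of the activator PA28. Psma1 passed whichever library was left out, Psme1 missed without minus Dox replicate 3 or plus Dox replicate 1 or 3 (adjusted p = 0.0510 to 0.0536 from limma), and Psma5 without minus Dox replicate 2 or 3 or plus Dox replicate 1 or 3 (0.0774 to 0.105). Psma5 shares 55.4% of its 50-base stretches with other genes. Psmb6, the most abundant gene of this list, had means of 312 and 330 FPKM and did not pass (0.08, adjusted p = 0.232 from limma).

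Regulators of class I transcription (24 tested) had 1 gene higher, 1 lower and a median of -0.01. Irf2, an interferon regulatory factor that acts on class I pathway promoters, was at 11.5, 9.36 and 9.68 FPKM in the minus Dox group against 13.4, 13.04 and 12.5 FPKM in the plus Dox group. The groups did not overlap, and Irf2 rose by 0.36 on the log2 scale (adjusted p = 0.0492 from limma), just inside the threshold. Nfya, a subunit of the factor that binds CCAAT, was at 54.3, 59.0 and 56.1 FPKM in the minus Dox group against 49.0, 49.5 and 47.5 FPKM in the plus Dox group. Nfya fell, by limma at -0.21 on the log2 scale (adjusted p = 0.0252), and its groups lay apart. Nfkb1, which encodes an NF-kappa-B subunit and was the most abundant regulator, had means of 74.3 and 85.1 FPKM and did not pass (0.20, adjusted p = 0.0561 from limma). Both regulators passed without minus Dox replicate 1 and missed the threshold when any of the other 5 was left out (adjusted p = 0.107 to 0.135 for Irf2 and 0.0611 to 0.0899 for Nfya from limma).

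Of the 11 genes called in these lists, Tapbpl was the one that passed in all 16 alternatives of the processing, followed by Psma1 in 14, H2-Q4 in 13 and Psme1 in 12. The others passed in fewer: 9 for Uggt1, 8 each for Ganab and Psma5, 7 each for H2-Q7, Fcgrt and Nfya, and 4 for Irf2.

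**Figure D4:**
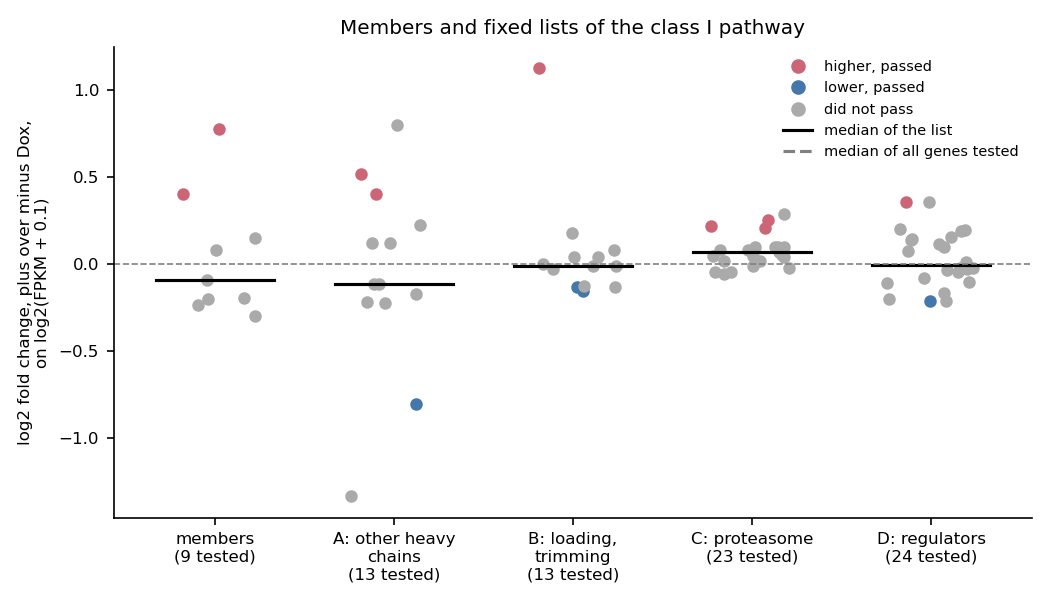
Log2 fold change (plus over minus Dox, on log2(FPKM + 0.1)) of each tested gene among the 10 class I genes and in the 4 lists of other pathway genes, with black lines at the median of each list and a dashed line at the median of all genes tested. Red and blue mark genes that passed as higher or lower by limma and grey those that did not; the medians lie between -0.12 and 0.07, and genes that passed stand on both sides of 0 in 3 of the 4 lists.

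Class II genes, which antigen-presenting cells use for peptides taken up from outside, were low. The 11 listed summed to 6.01, 3.20 and 3.37 FPKM in the minus Dox group against 4.08, 4.44 and 4.31 FPKM in the plus Dox group, and 5 of them (H2-Aa, H2-Ab1, H2-Eb1, H2-Eb2 and H2-Ob) were at 0 in all 6 libraries. H2-DMa, which helps load class II molecules, had the highest mean and made up most of the sum, at 5.62, 2.78 and 2.38 FPKM in the minus Dox group against 2.72, 3.20 and 3.31 FPKM in the plus Dox group. The groups overlapped, and H2-DMa, the one of the 11 that passed the filter, was not called (log2 fold change -0.12, adjusted p = 0.839 from limma). Cd74, which encodes the invariant chain of class II molecules, was singled out after its values were seen. The minus Dox libraries had 0.0768, 0 and 0.177 FPKM, and the plus Dox libraries had 0.753, 0.876 and 0.480 FPKM. The mean was below 1 FPKM, and the groups did not overlap. In the limma fit without the filter its log2 fold change was 2.21, with an adjusted p of 0.0407. Markers of other cell types were also low. The 10 markers of leukocytes and endothelium used here summed to 4.35, 4.50 and 4.84 FPKM in the minus Dox group against 4.68, 4.33 and 4.25 FPKM in the plus Dox group. Cdh5 made up most of that sum and did not pass (log2 fold change -0.10, adjusted p = 0.632 from limma), and Cd3e, Cd4, Cd8a and Adgre1 were at 0 in all 6 libraries. Ptprc, Itgam, Itgax, Csf1r and Pecam1 reached at most 0.222 FPKM in any library, and their groups overlapped. The means of Ptprc, Itgam, Itgax and Csf1r were higher with Dox, at most 0.0937 FPKM. The part of other cell types in the rise of H2-K1 and Tapbp was not tested. Of the 5 tested genes that mark the treatment or the carcinoma line, Krt18 (2.05) and Epcam (4.20) rose and Vim (-0.35), Zeb1 (-0.98) and Zeb2 (-1.81) fell, in log2 fold change by limma. Cdh1 and Krt8 of the same list did not pass the filter. In the limma fit without it, their log2 fold changes were 2.49 (adjusted p = 0.0125) and 1.23 (adjusted p = 0.0972). Epcam was at 0.0844, 0.137 and 0.161 FPKM in the minus Dox group against 4.31, 3.88 and 3.98 FPKM in the plus Dox group. It passed the filter through the plus Dox group, and its log2 fold change ranged from 2.16 to 4.93 over the alternatives. Vim did not pass under quantile normalization (adjusted p = 0.0514 from limma).

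The mature sequence of the induced microRNA is shown because direct targets of a microRNA are commonly sought by a match to its seed. RefSeq gives it on GRCm38.p6 at chr6:124718324-124718346, minus strand, and capitals mark the seed, bases 2 to 8.
mmu-miR-200c-3p: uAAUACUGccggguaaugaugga
The matching letters in a transcript are CAGTATT. In the longest annotated 3′ UTR of the class I genes, which ran from 55 bases in Psmb10 to 1197 bases in Nlrc5, 0 of 10 held that match. Of the tested genes with an annotated 3′ UTR, 1737 of 10835 did (16.0%), but their 3′ UTRs were longer, with a median of 1198 bases beside 449.5 for the class I genes. Among the 11 genes called in the pathway lists Nfya alone held a match, and its site is shown with the seed match in capitals.
Nfya site: actacttagctCAGTATTacag
A seed match is a description of letters, and whether miR-200c acts on Nfya was not tested.

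Genes closest to the mean standardized level of the tested class I genes over the 6 libraries were sought by correlation. That mean was -0.04, -0.02 and -0.03 without Dox and -0.09, 0.26 and -0.09 with Dox, so it was high in plus Dox replicate 2 alone. That library also had the highest relative depth, 1.49. The mean does not follow the rise of H2-K1 and Tapbp. The 5 closest genes were Mrpl2 (r = 0.982), Tcta (0.981), Zfp69 (0.978), Rnf166 (0.975) and Gm13685 (0.971), over 6 libraries, given as a description. None of these 5 passed by limma (lowest adjusted p = 0.448, for Gm13685), and all 5 were highest in plus Dox replicate 2. Gm13685 was at 378 FPKM in that library and at 0 in the other 5, so its place here and its passing of the filter rest on 1 library. The standardized mean weights each tested gene equally. Unlike the summed FPKM, it did not separate the groups.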

How the data were processed

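RNA of 6 Met-1 TripZ-200c libraries (3 minus Dox, 3 plus Dox, grouped by their labels) was sequenced as single 50-base reads. The authors mapped the reads with gSNAP, estimated expression with Cufflinks on GRCm38.p6 and deposited one FPKM value per gene and library; versions are not stated, and the methods also name an FVB assembly. The deposited group means, fold change, p-values and q-values were not used. Of 43611 lines, 63 with a repeated identifier were dropped for the one with the higher mean, and the placeholder 999999999 (6 values of 4 genes) was treated as missing. In R 4.3.3, limma 3.58.1 (lmFit, eBayes with trend) compared the groups on log2(FPKM + 0.1) for genes whose mean reached 1 FPKM, the group being the only term, with Benjamini-Hochberg adjustment over all 12879 genes at 0.05; Psmb9 came from the fit without the filter (20513 genes). The model was tested on simulated data. Ratios, shares and sums per library were compared by exact two-sided permutation tests. Python 3.11.15 with numpy 2.4.6, pandas 2.3.3, scipy 1.17.1 and matplotlib 3.10.9 was used for the other steps.

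Named are all 10 genes, every list gene that passed, the most abundant gene of each list and the 5 genes closest by Pearson r to the mean standardized level. The genes and lists were chosen with earlier results of these data known. Alternatives were a pseudocount of 1 or 0.01, no filter or a minimum of 5 FPKM, limma without the trend, median scaling, quantile normalization, unmoderated models on log2(FPKM + 1) or FPKM, the replicate number as a block, and leaving out each library. Coordinates, transcripts and 3′ UTRs are from GENCODE on GRCm38, and promoter and microRNA sequences from RefSeq on GRCm38.p6. The table lacks 4 listed symbols, H2-T9, H2-Q8, H2-Q9 and H2-L.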

Additional observations from a re-analysis of the deposited data

How the results depend on the processing

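Of 288 values recomputed under an alternative, 253 kept their direction and side of the threshold or, for counts, lay within 1.5 times. A log2 fold change could move further in size and still be among the 253, as that of Tap1 did. H2-K1 passed in all 16 alternatives (log2 fold change 0.37 to 0.43, adjusted p up to 0.0206). Tapbp passed in 14 (0.62 to 0.89, adjusted p 0.0041 to 0.0768). Psmb9 turned from -0.35 to 0.10 without plus Dox replicate 1, and its range with a library left out was -0.70 to 0.10. With a pseudocount of 1 its log2 fold change was -0.13. The count of the 10 genes called higher was 1 (H2-K1) under both unmoderated models and 2 to 2 with a library left out. The count called lower was 0 to 1 with a library left out (Psmb10 without minus Dox replicate 1, Psmb8 without plus Dox replicate 2). Among all genes, 598 were called higher under the unmoderated model on log2(FPKM + 1) and 593 under that on FPKM. With a library left out, the count called higher was 471 to 671 and the count called lower 577 to 699. It was moved past 1.5 times for genes called higher without minus Dox replicate 2 (588) or plus Dox replicate 1 (580), 2 (545) or 3 (471), and for genes called lower without minus Dox replicate 2 (660) or 3 (657) or plus Dox replicate 1 (655) or 3 (577). In the pathway lists 4 were called higher and 0 lower without the trend, 2 and 2 under the unmoderated model on log2(FPKM + 1), 2 higher under that on FPKM, and 3 to 7 higher and 0 to 3 lower with a library left out. The causes were not tested.

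With the replicate number as a block, 1337 genes passed, of which 1269 were among the 1935 that passed without it. In that block fit the lists had 4 genes higher and 1 lower, and H2-K1 and Tapbp both had an adjusted p of 0.0041. Across genes, each library's departure from its group mean correlated with that of the same-numbered library by 0.019 on average (-0.00759 to 0.0359). With those of other numbers the average was -0.00952 (-0.0511 to 0.0235). Departures cancel within a group, so these averages are not separate comparisons. They show no clear pairing by number across genes, and whether same-numbered libraries shared a culture or day was not tested.

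With a library left out, the difference in the immunoproteasome share was -2.04 to -1.46 percentage points, in the ratio of H2-K1 to H2-D1 0.0837 to 0.138, in the ratio of B2m to heavy chains -0.186 to -0.116 and in the summed FPKM 175 to 213. At a minimum of 5 FPKM there was no value for Tap1, Nlrc5 and Psmb9. The reads behind each value, and so what depth limits, are unknown. Strain differences from the reference and the use of strand in counting were not tested.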
